A study of Homo sapiens with 12 samples.

Results

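The genes described here are the tubulins and the proteins that fold them: the alpha, beta, gamma, delta and epsilon tubulins, the gamma-tubulin complex proteins, the subunits of the cytosolic chaperonin CCT (also called TRiC), the prefoldin subunits and the tubulin-folding cofactors A to E. The rule for membership reads gene symbols and no measured value. Symbols beginning with TUB and then A, B, G, D or E, with CCT and a digit, or with PFDN and a digit were taken, together with TBCA, TBCB, TBCC, TBCD and TBCE. This gave 45 of the 19775 genes that own a probe set on the array, and where a gene had several probe sets the brightest by mean was used. Of these, 38 were bright enough to test, among 10907 genes tested in all. The other 7 (TUBA8, TUBAL3, TUBB1, TUBB7P, TUBBP5, CCT6B and CCT8L2) stayed under the log2 floor of 4 and have no result. TCP1, the first subunit of the chaperonin, also matched the rule, but every probe set for it is listed for a second gene as well, so it is not counted among the 45. The same holds for PFDN6, TUBA3C, TUBA3D, CCT6P1 and CCT6P3.

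HK-2 is 1 established human line, immortalised from epithelium of the kidney's proximal tubule. The cells were grown in 6-well plates in a defined medium with EGF, insulin, transferrin, selenite and hydrocortisone, and were near confluence when the compound labelled Nnm or its vehicle was added. Total RNA was taken after 48 h or 24 h from 4 groups of 3 biological replicates: Nnm 48 h, control 48 h, Nnm 24 h and control 24 h, where the Nnm dose is called low and no concentration is given. Each of the 12 arrays gave log2 expression values, where 1 unit is a 2-fold difference, and the number of arrays limits the precision.

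Alpha and beta tubulin form the dimer from which microtubules are built. A newly made tubulin chain is taken up by prefoldin, handed to the ring-shaped chaperonin CCT for folding, and then joined into a dimer by the cofactors TBCA to TBCE. Gamma tubulin and its complex proteins form the ring from which new microtubules grow, and in epithelial cells microtubules carry vesicles along the axis between the apical and basal membranes.

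The nature of the cells was checked on marker genes. All 7 epithelial markers were bright enough to test, with means over all arrays from 7.21 (CDH1) to 13.1 (EPCAM). Only DPP4 and PAX8 of 11 proximal tubule markers were. LRP2, CUBN, AQP1, ANPEP, GGT1, SLC34A1, SLC5A2, SLC22A6 and SLC22A8, which mark mature proximal tubule, stayed below 4. None of 4 leukocyte markers passed 4, and among 8 fibroblast markers DCN, LUM (10.2) and COL1A1 (8.19) did. Of 5 neuronal markers SNAP25 and NEFL passed 4. On the first principal component over all genes, which held 50.3% of the variance, the Nnm arrays of replicate 2 lay at -3.28 (48 h) and -1.55 (24 h), between the other Nnm arrays at -43.2 to -31.2 and the controls at 18.6 to 34.4. The 4 replicate 2 arrays also had the lowest log2 difference of beta-actin's 5′ probe set minus its 3′ probe set, a sign of RNA quality. It was -1.17 to -1.09 there, against -0.86 to -0.74 on the others. The same difference for GAPDH did not set them apart, at 0.062 to 0.158 against 0.029 to 0.162 on the others. Counts are therefore given with and without the Nnm arrays of replicate 2. Of the Nnm arrays these lay nearest the controls, so leaving them out favours more calls. At 24 h 15.9% of all genes fell without them, against 8.85% with them. A call gained in that fit is therefore not separate support, and the control arrays of replicate 2 were kept. The labels' replicate numbers paired the arrays across groups, and values from the fit with the replicate number as a block over all arrays are given where they change the call of a tubulin or folding gene.

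The sequences before the transcription starts of 3 chaperonin subunits and of TUBA1A are shown first, as examples. These genes are among the 12 members that fell over both times taken as 1 mean, and the fall does not single them out. The sequences are RefSeq promoter windows of build GRCh38.p14, each with the 250 bases before the start, written 5′ to 3′ along the gene. Capitals mark matches, on either strand, to any of 4 motifs. The CCAAT box reads ATTGG on the opposite strand. The core of a heat shock element was searched as GAANNTTC. The E-box, a site for basic helix-loop-helix factors, was searched as CACGTG. The AP-1 site, bound by Fos and Jun proteins, was searched as TGANTCA, again on both strands.
CCT7 (chr2:73234058-73234307, plus strand): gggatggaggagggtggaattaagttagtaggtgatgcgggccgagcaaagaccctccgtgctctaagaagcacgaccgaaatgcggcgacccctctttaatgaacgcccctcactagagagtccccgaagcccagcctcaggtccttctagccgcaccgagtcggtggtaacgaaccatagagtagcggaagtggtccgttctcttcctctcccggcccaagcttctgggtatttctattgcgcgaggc
CCT2 (chr12:69585209-69585458, plus strand): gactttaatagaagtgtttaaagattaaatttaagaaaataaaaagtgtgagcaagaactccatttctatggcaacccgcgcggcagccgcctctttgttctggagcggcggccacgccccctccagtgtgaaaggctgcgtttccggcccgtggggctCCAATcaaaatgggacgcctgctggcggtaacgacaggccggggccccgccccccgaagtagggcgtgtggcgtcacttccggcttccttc
CCT8 (chr21:29073649-29073898, minus strand): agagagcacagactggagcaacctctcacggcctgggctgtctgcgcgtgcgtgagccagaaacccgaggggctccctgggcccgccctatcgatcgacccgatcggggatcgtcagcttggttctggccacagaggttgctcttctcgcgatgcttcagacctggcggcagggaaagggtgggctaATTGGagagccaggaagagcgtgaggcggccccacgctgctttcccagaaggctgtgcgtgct
TUBA1A (chr12:49189081-49189330, minus strand): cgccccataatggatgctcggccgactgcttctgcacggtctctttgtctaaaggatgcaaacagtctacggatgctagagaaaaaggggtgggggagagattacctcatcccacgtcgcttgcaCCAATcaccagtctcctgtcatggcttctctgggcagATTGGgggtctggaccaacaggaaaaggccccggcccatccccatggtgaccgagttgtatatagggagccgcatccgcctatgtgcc
CCT2 and CCT8 each held 1 CCAAT match, TUBA1A held 2, and CCT7 held no match to these 4 motifs. Of the other members that fell over both times, CCT3, TUBB4A and TUBG2 held a CCAAT match. CCT5, TUBB6, PFDN1 and TUBGCP3 held none, and CCT6A had no window. Promoter windows were found for 39 of the 45 genes and 34 of the 38 tested ones. Those of TUBA4A, CCT4, CCT5 and TUBGCP3, and of the untested TUBB1, overlap the gene itself as RefSeq bounds it. The windows counted below are therefore not all sequence before the gene, and the TUBGCP3 window holds 1 of the heat shock matches. CCAAT, the letters of the box bound by the factor NF-Y, stood in 16 of the 34 windows (47.1%), against 32.0% of 35116 windows of the same length for all genes. Those 35116 are all RefSeq windows of that length. They were not limited to genes tested or bright on the array, so they are not a matched set. The heat shock core stood in 2 of the 34 (5.88%), against 5.78% of all. The E-box stood in 1 (2.94%), against 6.34% of all. The AP-1 letters stood in 1 (2.94%), against 6.57% of all. CCGCCC, a GC box that is not marked by capitals, stood in 16 (47.1%), against 42.6%. No match of a motif overlapped a match of another in these windows, and the matches are a description of the letters alone.

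On the probe set used for each gene, all 7 chaperonin subunits tested had lower means in Nnm cells at both times. CCT is a double ring of 8 different subunits that folds actin and tubulin, and 7 subunit genes were tested. At 48 h, 1 of 7 fell past an adjusted p of 0.05 (limma, adjusted over all genes tested), where 5.34% of all genes fell. At 24 h, 5 of 7 fell, where 8.85% of all genes did. For the mean change over both times, 6 of 7 fell, where 16.9% of all genes did. The 7 log2 changes ran from -0.51 to -0.14 at 48 h, with a median of -0.31, and from -0.57 to -0.17 at 24 h, with a median of -0.46. The median of all genes tested was 0.02 at 48 h and 0.01 at 24 h. All 3 Nnm values lay below all 3 control values for 6 of 7 subunits at 48 h, where 15.8% of all genes did so (CCT3 was the exception), and for 7 of 7 at 24 h, where 18.7% did.

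CCT7, the eta subunit, was the only member past the threshold at each time. It read 11.35, 11.56 and 11.53 in Nnm cells at 48 h, against 11.98, 11.88 and 12.13 in control cells. The 24 h values were 11.73, 11.87 and 11.82 in Nnm cells, against 12.26, 12.26 and 12.50 in control cells. The groups did not overlap at either time. It fell by 0.51 at 48 h (SE 0.11, adjusted p = 0.0175, limma) and by 0.54 at 24 h (SE 0.11, adjusted p = 0.0131), which left 0.700 and 0.690 of the control level.

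CCT5, the epsilon subunit, read 12.11, 12.54 and 12.62 in Nnm cells at 48 h, against 12.73, 12.70 and 12.90 in control cells. After 24 h the readings were 12.46, 12.72 and 12.58 in Nnm cells, against 12.98, 13.20 and 13.27 in control cells. The Nnm values lay below the control values at both times, with the narrower gap at 48 h. CCT5 fell by 0.57 at 24 h (SE 0.15, adjusted p = 0.0253), while its change of -0.35 at 48 h missed the threshold (adjusted p = 0.124) and passed with the replicate block (adjusted p = 0.0301). A second, dimmer probe set of CCT5 showed -0.99 at 48 h and -1.20 at 24 h.

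CCT2, the beta subunit, read 13.16, 13.35 and 13.28 in Nnm cells at 48 h, against 13.40, 13.59 and 13.56 in control cells. Its values at 24 h were 13.17, 13.53 and 13.37 in Nnm cells, against 13.73, 13.83 and 13.90 in control cells. The Nnm array of replicate 1 was the lowest in each Nnm group, and no values overlapped. CCT3, the gamma subunit, read 11.88, 12.36 and 12.19 in Nnm cells at 48 h, against 12.33, 12.45 and 12.63 in control cells, with the replicate 2 Nnm value above the lowest control value. At 24 h it read 12.17, 12.35 and 12.43 in Nnm cells, against 12.67, 12.80 and 13.01 in control cells, with no overlap. CCT2 fell by 0.46 at 24 h (SE 0.12, adjusted p = 0.0231) and CCT3 by 0.51 (SE 0.15, adjusted p = 0.0373, with no filter 0.0663). At 48 h their changes of -0.25 and -0.33 missed the threshold (adjusted p = 0.159 and 0.155) and passed with the block (adjusted p = 0.039 and 0.0304).

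CCT6A, a zeta subunit, read 12.25, 12.58 and 12.37 in Nnm cells at 48 h, against 12.61, 12.76 and 12.75 in control cells. The 24 h values were 12.21, 12.63 and 12.56 in Nnm cells, against 12.76, 12.91 and 13.08 in control cells. Its change was -0.31 at 48 h (adjusted p = 0.16, with the block 0.0353), and it fell by 0.45 at 24 h (SE 0.14, adjusted p = 0.0479). The other probe set of CCT6A did not show this. It gave -0.18 at 48 h and 0.0031 at 24 h, so the CCT6A result depends on the probe set read. The 24 h call was also lost with no filter, quantile normalisation or median centring (adjusted p = 0.0789, 0.0629 and 0.0649). CCT8, the theta subunit, read 12.61, 12.59 and 12.51 in Nnm cells at 48 h, against 12.62, 12.80 and 12.82 in control cells, and at 24 h 12.55, 12.68 and 12.68 in Nnm cells, against 12.75, 12.88 and 12.94 in control cells. CCT8 lay lower at both times without overlap, though replicate 1 of Nnm and control nearly met at 48 h, and fell by 0.20 over both times (SE 0.07, adjusted p = 0.0477), a call that stood in only 3 of the 12 fits that left out 1 array and was lost without both Nnm replicate 2 arrays (adjusted p = 0.0539). CCT4, the delta subunit, averaged 12.94 ± 0.06 in Nnm cells and 13.08 ± 0.01 in control cells at 48 h, and 13.04 ± 0.07 in Nnm cells and 13.22 ± 0.06 in control cells at 24 h (SD, n = 3 each). Its mean change of -0.16 over both times had an adjusted p of 0.0656, and 0.0284 with the block. The second, dimmer probe set of CCT4 did not show a fall, with 0.04 at 48 h and 0.02 at 24 h.

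With the replicate block, 5 of 7 subunits fell at 48 h (13.7% of all genes did) and 5 of 7 at 24 h (18.8%). Over both times the calls of CCT2, CCT3, CCT5, CCT6A and CCT7 stood without any 1 of the 12 arrays. The single-time calls were more fragile. Without Nnm 24 h replicate 1 or control 24 h replicate 3 no subunit passed at 24 h, and without Nnm 24 h replicate 3 only CCT7 did. The 24 h call of CCT5 was also lost without control 24 h replicate 2, and that of CCT3 without control 24 h replicate 1 or 2, Nnm 48 h replicate 3 or control 48 h replicate 2. That of CCT6A stood in 3 of 12 such fits. With the block fitted within the arrays of each time, CCT3 and CCT5 passed at 24 h and CCT7 at 48 h, while CCT2, CCT6A and CCT7 at 24 h did not (adjusted p = 0.058, 0.0605 and 0.0505). The 48 h call of CCT7 was lost without any 1 of Nnm 48 h replicates 1 and 3 and control 48 h replicates 1 and 3. The RNA came from whole cultures, so less RNA per cell and fewer cells carrying it cannot be told apart, here and for the genes below.

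**Figure D1:**
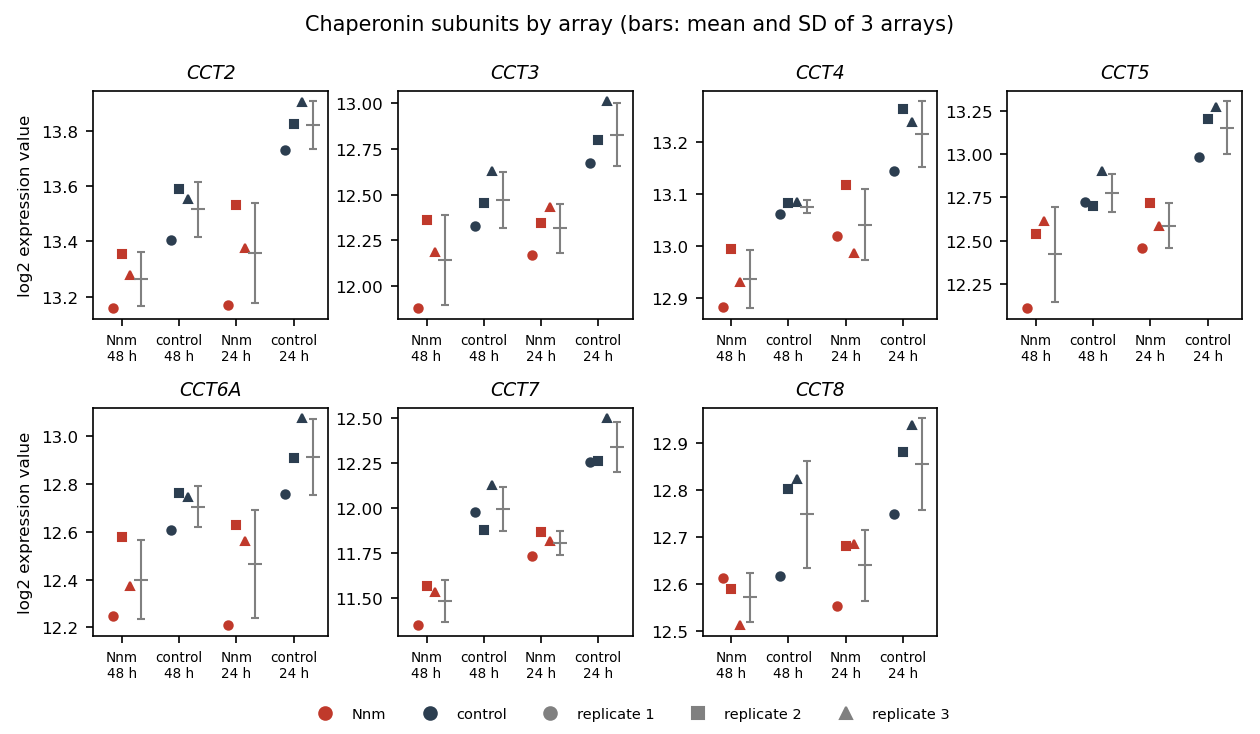
Log2 expression value of each chaperonin subunit (vertical axis) in the 4 groups of 3 arrays (horizontal axis), with marker shape for the replicate number and grey bars for the mean and SD. The Nnm values of CCT7 lie at 11.35 to 11.56 at 48 h and 11.73 to 11.87 at 24 h, below all control values of the same time, and the control group at 24 h has the highest mean in every panel.

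Alpha tubulins, the subunit that holds the non-exchanged GTP of the dimer, had negative changes in 5 of 6 genes at 24 h and in 3 of 6 at 48 h. Of these 6, none passed at 48 h and 2 fell at 24 h, TUBA1A and TUBA1B, where 8.85% of all genes fell. TUBA1A, an isotype best known from neurons, read 11.93, 12.43 and 12.35 in Nnm cells at 48 h, against 12.24, 12.88 and 13.23 in control cells. After 24 h the readings were 12.19, 12.81 and 12.41 in Nnm cells, against 13.51, 13.51 and 13.87 in control cells. The groups overlapped at 48 h and stood well apart at 24 h. TUBA1A fell by 1.16 at 24 h (SE 0.25, adjusted p = 0.0149), to 0.448 of the control level, and by 0.86 over both times (SE 0.18, adjusted p = 0.00491). Its change at 48 h was -0.55 (SE 0.25, adjusted p = 0.159, with the block 0.0387). The 24 h calls of TUBA1A and TUBA1B were lost without Nnm 24 h replicate 1 or 3 or control 24 h replicate 3, and that of TUBA1B also without control 24 h replicate 1 and with the block fitted within the 24 h arrays (adjusted p = 0.0557).

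TUBA1B, a widely expressed isotype with the highest mean of the alpha tubulins here, read 14.13, 14.07 and 14.38 in Nnm cells at 48 h, against 14.06, 14.02 and 14.30 in control cells. Its values at 24 h were 14.26, 14.22 and 14.29 in Nnm cells, against 14.71, 14.57 and 14.84 in control cells. The 48 h groups covered the same range, and the 24 h groups did not overlap. TUBA1B fell by 0.45 at 24 h (SE 0.12, adjusted p = 0.0285), and its change at 48 h was 0.07 (SE 0.12, adjusted p = 0.743). Over both times its change of -0.19 passed with the block alone (adjusted p = 0.102, with the block 0.02). Its 5 kept probe sets, of a type that can also bind other alpha tubulins, gave -0.50 to -0.45 at 24 h and 0.05 to 0.10 at 48 h. TUBA1C, a close relative, averaged 14.01 ± 0.21 in Nnm cells and 13.91 ± 0.14 in control cells at 48 h, and 14.07 ± 0.07 and 14.41 ± 0.10 in Nnm and control cells at 24 h. Its change of -0.34 at 24 h missed the threshold (adjusted p = 0.0806) and passed with the block (adjusted p = 0.0153). TUBA4A, which is made without a terminal tyrosine, changed by 0.39 at 48 h (adjusted p = 0.187, with the block 0.0116) and by -0.14 at 24 h (adjusted p = 0.638). TUBA4B moved by at most 0.03 in size at either time. The pseudogene TUBA3FP lay at 3.23 to 4.55, around the floor, where the size of a change depends on the background subtraction. It passed the filter only through 48 h arrays, and every 24 h value was under 4, so no size is given at 24 h. Its adjusted p there was 0.109, and 0.0185 with the block.

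Beta tubulins, the subunit whose GTP is exchanged and hydrolysed as microtubules grow, were read in the same way. At 24 h all 7 tested had a negative change, from -1.18 to -0.35 with a median of -0.48. Of these, 1 (TUBB6) fell past the threshold, where 8.85% of all genes fell, and 6 with the replicate block, where 18.8% did. At 48 h 4 were negative and 3 positive, from -1.46 to 0.32 with a median of -0.10, none past the threshold. With the block at 48 h, TUBB4A fell (adjusted p = 0.0143) and TUBB and TUBB4B rose (adjusted p = 0.0422 and 0.0451), where 13.7% of all genes fell and 18.5% rose. With the block fitted within the 48 h arrays TUBB4A still fell (adjusted p = 0.0428), and TUBB and TUBB4B did not pass (adjusted p = 0.0909 and 0.0735). Within the 24 h arrays TUBB2A, TUBB4A and TUBB6 fell (adjusted p = 0.046, 0.0438 and 0.0438).

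TUBB6, a divergent isotype found in many tissues, read 10.49, 10.39 and 11.20 in Nnm cells at 48 h, against 10.64, 10.59 and 11.14 in control cells. At 24 h it read 10.81, 10.83 and 10.89 in Nnm cells, against 11.72, 11.42 and 12.17 in control cells. The 48 h groups overlapped, and at 24 h the 3 Nnm values lay close together and below every control value. TUBB6 fell by 0.93 at 24 h (SE 0.24, adjusted p = 0.0264), to 0.526 of the control level, and its change at 48 h was -0.10 (SE 0.24, adjusted p = 0.822). The 24 h call was lost with no filter (adjusted p = 0.0668) and without Nnm 24 h replicate 1 or 3 or control 24 h replicate 1 or 3. Over both times TUBB6 fell by 0.51 (adjusted p = 0.038), in only 4 of the 12 fits that left out 1 array, and not without both Nnm replicate 2 arrays (adjusted p = 0.0947).

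TUBB4A, an isotype known from the nervous system, was much dimmer and more variable. It read 6.38, 5.24 and 4.70 in Nnm cells at 48 h, against 7.42, 6.42 and 6.87 in control cells. The 24 h values were 6.71, 4.89 and 6.65 in Nnm cells, against 7.90, 6.48 and 7.40 in control cells. The groups all but met at 48 h and overlapped at 24 h, where the replicate 2 control lay below the other Nnm arrays. Its changes were -1.46 at 48 h (SE 0.57, adjusted p = 0.106) and -1.18 at 24 h (SE 0.57, adjusted p = 0.16, with the block 0.026), and it fell by 1.32 over both times (SE 0.40, adjusted p = 0.0258). That call was lost without Nnm 48 h replicate 3, control 24 h replicate 1 or 3, or control 48 h replicate 1, and without both Nnm replicate 2 arrays (adjusted p = 0.0603).

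TUBB, the main beta tubulin of dividing cells, read 13.94, 13.61 and 14.14 in Nnm cells at 48 h, against 13.57, 13.43 and 13.84 in control cells. After 24 h the readings were 13.96, 13.73 and 13.89 in Nnm cells, against 14.27, 14.00 and 14.44 in control cells. Each Nnm array lay above the control array of its replicate number at 48 h and below it at 24 h, although the 48 h groups overlapped. The changes were 0.29 at 48 h (SE 0.17, adjusted p = 0.27) and -0.38 at 24 h (SE 0.17, adjusted p = 0.129, with the block 0.0132), and its 3 probe sets shared these directions. TUBB4B, also widely expressed, averaged 12.94 ± 0.32 in Nnm cells and 12.62 ± 0.23 in control cells at 48 h, and 12.95 ± 0.13 and 13.40 ± 0.29 in Nnm and control cells at 24 h (SD, n = 3 each). Its change at 24 h was -0.45 (adjusted p = 0.123, with the block 0.0118). At 24 h TUBB2A changed by -0.71 (adjusted p = 0.12, with the block 0.0147; over both times -0.48, adjusted p = 0.103, with the block 0.011) and TUBB3 by -0.35 (adjusted p = 0.456, with the block 0.0283). TUBB2B had no call in any of these fits.

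**Figure D2:**
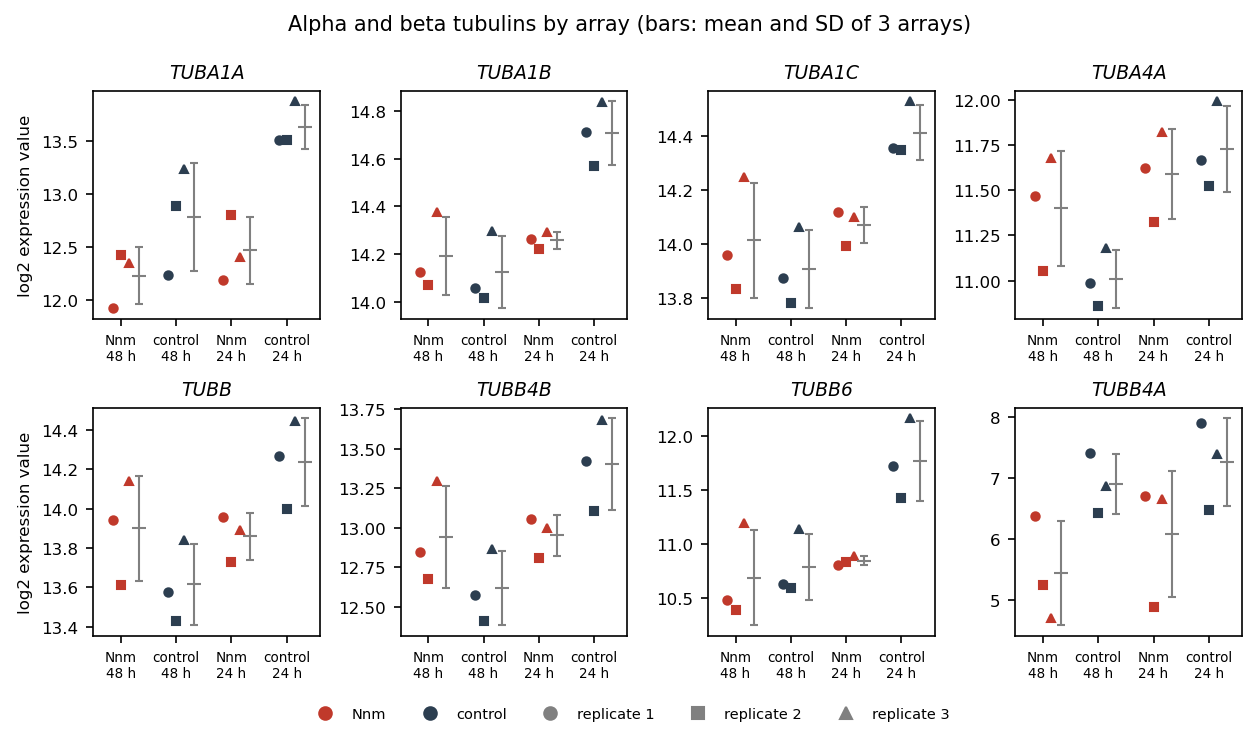
Log2 expression value of 4 alpha and 4 beta tubulins (vertical axis) in the 4 groups of 3 arrays (horizontal axis), with marker shape for the replicate number and grey bars for the mean and SD. For TUBA1B the Nnm arrays at 48 h (14.07 to 14.38), the controls at 48 h (14.02 to 14.30) and the Nnm arrays at 24 h (14.22 to 14.29) share a range, and the controls at 24 h (14.57 to 14.84) lie above it.

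Among the remaining tubulins, TUBD1 was the only member that rose at 48 h, where 8.45% of all genes rose. It encodes delta tubulin, a protein of the centriole. It read 8.35, 8.05 and 8.30 in Nnm cells at 48 h, against 7.29, 7.70 and 7.64 in control cells, and at 24 h 7.92, 8.35 and 8.28 in Nnm cells, against 7.77, 8.10 and 8.0 in control cells. The 48 h groups did not overlap and the 24 h groups did. TUBD1 rose by 0.69 at 48 h (SE 0.16, adjusted p = 0.0215), a level 1.61 times that of control cells, and its change at 24 h was 0.22 (adjusted p = 0.334). All 3 of its probe sets were higher in Nnm cells, by 0.69 to 0.90 at 48 h and 0.22 to 0.32 at 24 h. The 48 h call was lost without any 1 of Nnm 48 h replicates 1 and 3 and control 48 h replicates 1 and 3, and with the block fitted within the 48 h arrays (adjusted p = 0.0536), while the rise of 0.46 over both times (adjusted p = 0.0105) stood without each array in turn.

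TUBG1, the main gamma tubulin of dividing cells, read 10.39, 9.97 and 10.81 in Nnm cells at 48 h, against 10.29, 10.01 and 10.59 in control cells. Its values at 24 h were 10.55, 10.36 and 10.93 in Nnm cells, against 11.09, 10.75 and 11.23 in control cells. The groups overlapped at both times, with replicate 2 the lowest and replicate 3 the highest in each. Its change was 0.09 at 48 h (adjusted p = 0.826) and -0.41 at 24 h (SE 0.24, adjusted p = 0.236, with the block 0.00948). TUBG2, the second gamma tubulin, lay near the floor. It read 4.79, 4.29 and 5.09 in Nnm cells at 48 h, against 5.62, 4.93 and 5.38 in control cells, and at 24 h 4.57, 5.09 and 4.66 in Nnm cells, against 5.99, 5.08 and 5.44 in control cells. The groups overlapped at both times. TUBG2 fell by 0.66 over both times (SE 0.20, adjusted p = 0.0233), a call lost without Nnm 24 h replicate 1 or 3, control 24 h replicate 1, or control 48 h replicate 1 or 3. At 24 h its change was -0.73 (adjusted p = 0.0848), which passed with the block (adjusted p = 0.0474) and without both Nnm replicate 2 arrays (adjusted p = 0.0329). TUBE1, the epsilon tubulin of centrioles, had no call.

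Of 5 gamma-tubulin complex proteins, which hold gamma tubulin in its ring, only TUBGCP3 passed in the fit without the block, over both times. TUBGCP3 read 9.23, 9.34 and 9.00 in Nnm cells at 48 h, against 9.58, 9.70 and 9.61 in control cells. At 24 h it read 8.79, 9.61 and 8.88 in Nnm cells, against 9.78, 9.61 and 9.51 in control cells. The 48 h groups did not overlap, and at 24 h the replicate 2 Nnm array stood at the control level while the others were lower. It fell by 0.49 over both times (SE 0.14, adjusted p = 0.0175), with changes of -0.44 at 48 h (adjusted p = 0.143) and -0.54 at 24 h (adjusted p = 0.0718, with the block 0.0299). Without both Nnm replicate 2 arrays it passed at 48 h (adjusted p = 0.0124) and at 24 h (adjusted p = 0.00148). Its second probe set went the other way, with 0.08 at 48 h and 0.15 at 24 h, and with the mean of its probe sets the change over both times was -0.19 (adjusted p = 0.108). TUBGCP2, TUBGCP4 and TUBGCP5 had changes of -0.44 to -0.26 at 24 h and -0.12 to -0.03 at 48 h, none past the threshold with or without the block. TUBGCP5 passed at 24 h without both Nnm replicate 2 arrays (adjusted p = 0.0414). TUBGCP6 read 3.91 to 4.35 on all arrays, at the floor.

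The prefoldin subunits did not move together. Prefoldin is a hexamer that carries unfolded actin and tubulin chains to CCT, and 4 of its genes were tested. PFDN1 read 9.61, 9.84 and 9.72 in Nnm cells at 48 h, against 9.67, 9.87 and 9.85 in control cells, and at 24 h 9.75, 9.80 and 9.58 in Nnm cells, against 10.05, 10.15 and 10.30 in control cells. The 48 h groups overlapped and the 24 h groups did not. PFDN1 fell by 0.46 at 24 h (SE 0.11, adjusted p = 0.0225), and its change at 48 h was -0.07 (adjusted p = 0.694). The 24 h call was lost without Nnm 24 h replicate 1 or 3 or control 24 h replicate 3, and with the block fitted within the 24 h arrays (adjusted p = 0.074). Over both times PFDN1 fell by 0.27 (adjusted p = 0.025).

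PFDN4 went the other way. It read 12.26, 11.76 and 12.27 in Nnm cells at 48 h, against 11.66, 11.55 and 11.75 in control cells, and at 24 h 12.03, 11.77 and 12.35 in Nnm cells, against 11.59, 11.60 and 11.81 in control cells. The Nnm arrays of replicates 1 and 3 stood above every control array. Replicate 2 in Nnm cells stood just above the highest control at 48 h, so those groups did not overlap, and below it at 24 h. PFDN4 rose by 0.41 over both times (SE 0.12, adjusted p = 0.0229, where 20.4% of all genes rose). Its change at 48 h was 0.45 (adjusted p = 0.106, with the block 0.0179) and at 24 h 0.38 (adjusted p = 0.138, with the block 0.0263). Without both Nnm replicate 2 arrays it passed at 48 h (adjusted p = 0.0086) and at 24 h (adjusted p = 0.0145).

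PFDN5 read 12.65, 12.56 and 12.64 in Nnm cells at 48 h, against 12.50, 12.39 and 12.48 in control cells. The 24 h values were 12.59, 12.44 and 12.54 in Nnm cells, against 12.38, 12.27 and 12.25 in control cells. The Nnm values lay above the control values at both times, with little room between them. PFDN5 rose by 0.19 over both times (SE 0.06, adjusted p = 0.0346). The change at 24 h, 0.22, passed with the block alone (adjusted p = 0.0357). PFDN2 had changes of -0.10 at 48 h and -0.07 at 24 h with overlapping groups. The calls over both times of PFDN1, PFDN4 and PFDN5 stood in 7, 7 and 4 of the 12 fits that left out 1 array.

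None of the 5 cofactors that assemble the dimer passed at either time or over both times. TBCA, which holds beta tubulin after its release from CCT and had the highest mean of the cofactors, read 12.83, 12.73 and 12.64 in Nnm cells at 48 h, against 12.83, 12.84 and 12.80 in control cells. After 24 h the readings were 12.77, 12.55 and 12.71 in Nnm cells, against 12.75, 12.61 and 12.58 in control cells. The groups overlapped at both times, and the changes were -0.09 at 48 h (SE 0.10, adjusted p = 0.592) and 0.03 at 24 h (SE 0.10, adjusted p = 0.855). The cofactors' changes ran from -0.33 to 0.19 at 48 h and from -0.05 to 0.05 at 24 h. TBCE, which binds alpha tubulin, was the one at -0.33 at 48 h (SE 0.11, adjusted p = 0.0866), with its Nnm values below all control values, and it passed with the block (adjusted p = 0.027) and without both Nnm replicate 2 arrays (adjusted p = 0.0447).

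**Figure D3:**
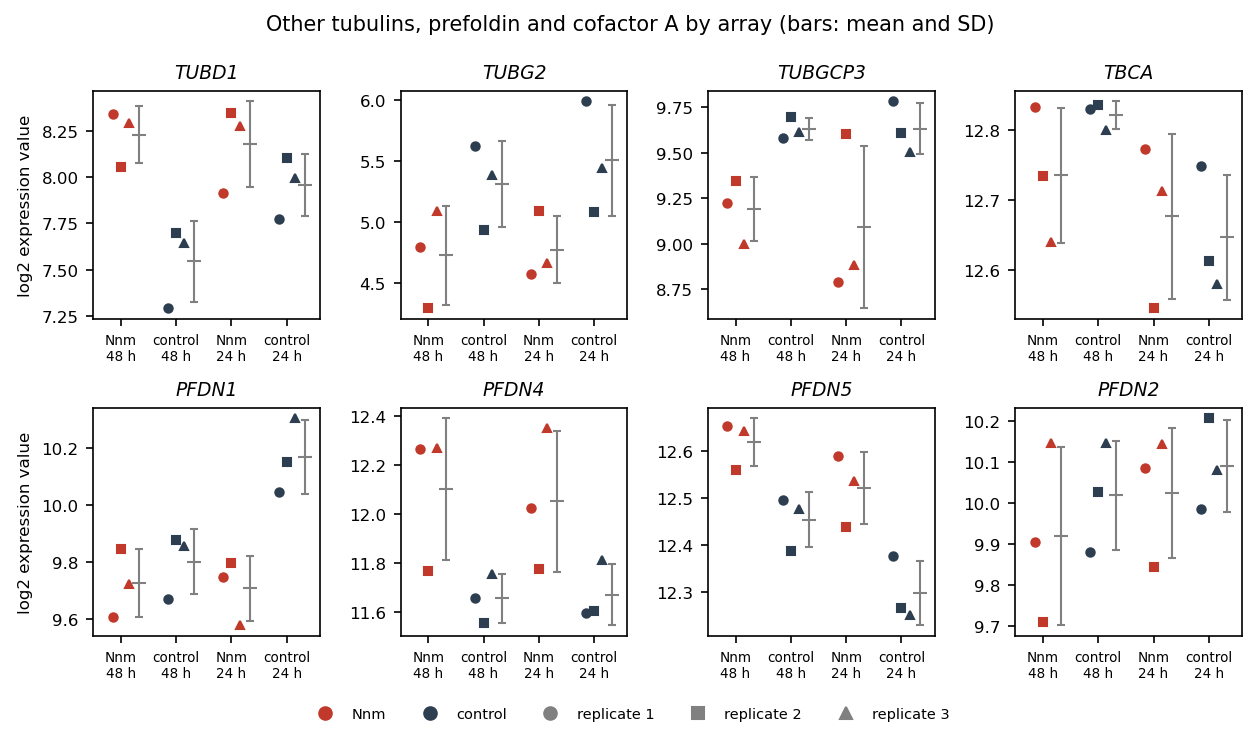
Log2 expression value of TUBD1, TUBG2, TUBGCP3, TBCA and 4 prefoldin subunits (vertical axis) in the 4 groups of 3 arrays (horizontal axis), with marker shape for the replicate number and grey bars for the mean and SD. TUBD1 at 48 h lies at 8.05 to 8.35 in Nnm cells and 7.29 to 7.70 in control cells, and the Nnm array of TUBGCP3 at 9.61 at 24 h is replicate 2.

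Counted over all 38 genes tested, 1 rose and 1 fell at 48 h, where 13.8% of all genes changed. In this fit without the block, the share of these genes called at 48 h was below that of all genes. The median change was -0.08, against 0.02 for all genes. For 9 members all Nnm values at 48 h lay below the control values, and for 3 above them, where 15.8% of all genes lay below and 20.3% above. At 24 h 17 lay below and 4 above, where 18.7% of all genes lay below and 21.1% above. At 24 h none rose and 9 fell, where 19.4% of all genes changed and 8.85% fell, and 29 of the 38 changes were negative, with a median of -0.35 against 0.01. Over both times 3 rose and 12 fell, where 37.3% of all genes changed, with 3 rises and 15 falls under the block (28% and 24.6% of all genes). The replicate block raised the counts to 5 rises and 8 falls at 48 h, where 18.5% of all genes rose and 13.7% fell. With the block, the share called at 48 h was thus not below that of all genes. At 24 h the block gave 3 rises and 18 falls, where 20% of all genes rose and 18.8% fell. Without both Nnm replicate 2 arrays 3 rose and 3 fell at 48 h, where 16.4% and 12.5% of all genes did, and 1 rose and 12 fell at 24 h, where 18.1% and 15.9% did. Over both times 3 rose and 10 fell without them, where 25.4% and 21.3% of all genes did. No member passed at 24 h without Nnm 24 h replicate 1 or control 24 h replicate 3. Only 1 did without Nnm 24 h replicate 3, 5 did without control 24 h replicate 1 and 6 without control 24 h replicate 2. No member passed at 48 h without any 1 of Nnm 48 h replicates 1 and 3 and control 48 h replicates 1 and 3. Over both times 9 passed without Nnm 24 h replicate 3.

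**Figure D4:**
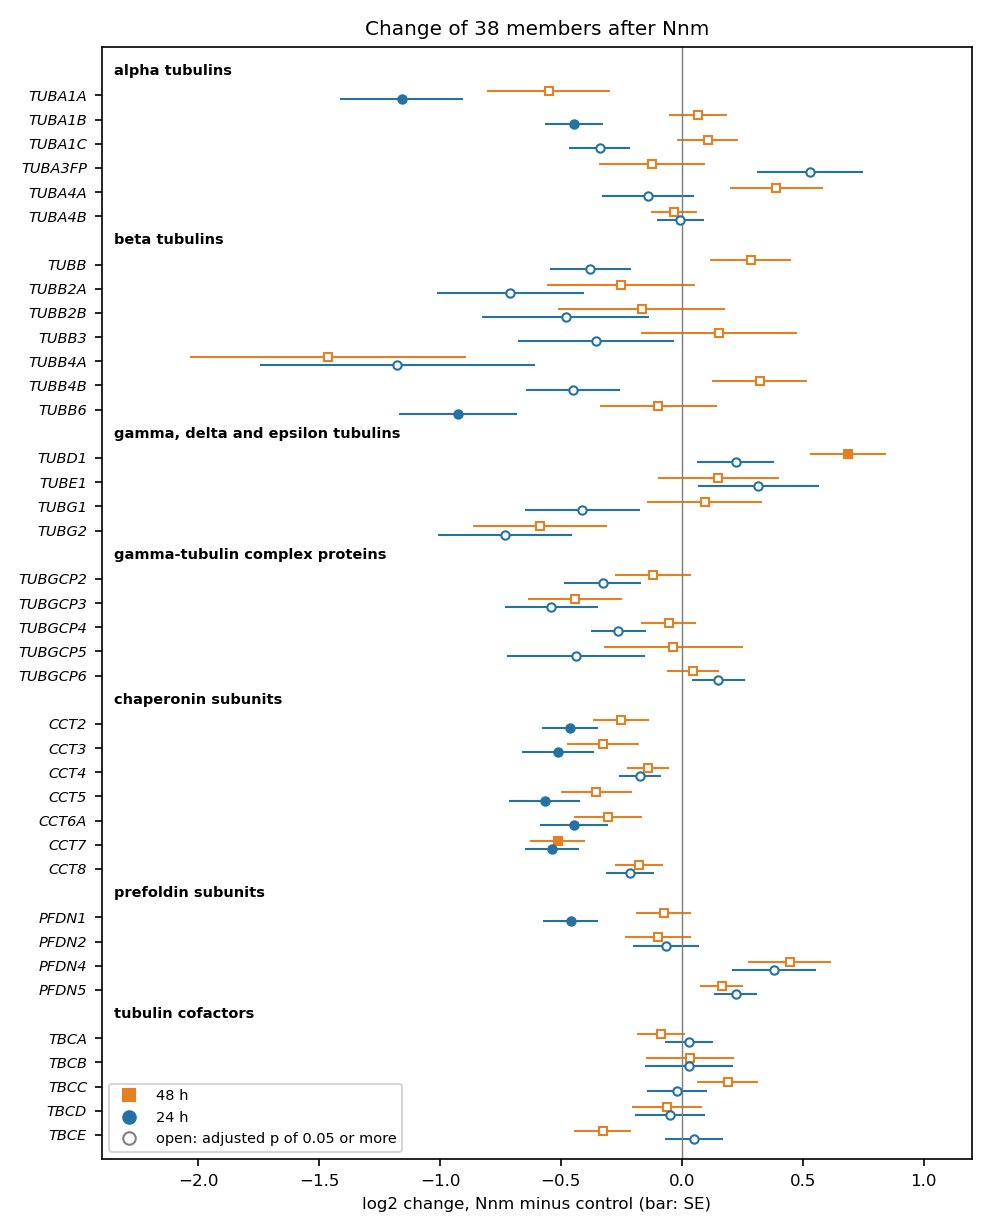
Log2 change, Nnm minus control, of the 38 tested genes (horizontal axis, bars are SE) by role, with squares for 48 h, circles for 24 h and filled symbols for an adjusted p under 0.05. The 7 chaperonin subunits lie left of 0 at both times, whereas TUBA1B, TUBA1C, TUBA4A, TUBB, TUBB3 and TUBB4B lie left of 0 at 24 h and right of it at 48 h.

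Whether the response differed between the times was tested as the difference of the changes, 48 h minus 24 h. No member passed (limma), nor did any gene (0% of all genes), and no member passed with the replicate block, where 0.00917% of all genes did in each direction. At an unadjusted p under 0.05, 6 members had a higher change at 48 h (4.04% of all genes) and 1 a lower change (2.36%). The 6 were TUBB6 at 0.83, TUBB4B at 0.77, TUBB at 0.66, TUBA1B at 0.51, TUBA1C at 0.45 and PFDN1 at 0.38, and the 1 was TBCE at -0.38. The lowest adjusted p was that of TUBA1B (0.716). For the chaperonin subunits the difference ran from 0.02 to 0.21. A change at 24 h and none at 48 h is therefore not shown to be a difference between the times.

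The control cells themselves were compared between 48 h and 24 h of culture. All 7 beta tubulins and 5 of 6 alpha tubulins had negative changes, 48 h minus 24 h, but no member passed (limma), where 0.128% of all genes did, 0.0825% higher and 0.0458% lower. At an unadjusted p under 0.05, 16 members were lower and 1 higher, where 8.68% and 7% of all genes were. With the replicate block 11 fell and 1 rose, where 4.6% and 3.87% of all genes did. Of the 38, 31 had a negative change, with a median of -0.29 against -0.02 for all genes, and for 19 all 3 values at 48 h lay below those at 24 h (14.2% of all genes) and for 4 above (12.1%). TUBB6 changed by -0.98 (adjusted p = 0.152, with the block 0.0084). TUBB3 changed by -0.86, TUBA1A by -0.84, TUBB2A by -0.79, TUBB4B by -0.79, TUBG1 by -0.72, TUBA4A by -0.72, TUBB by -0.62, TUBA1B by -0.58 and TUBA1C by -0.50, each past the threshold with the block alone (block-adjusted p from 0.00545 to 0.0297). CCT2, at -0.30, also passed with the block alone (adjusted p = 0.0483), while CCT7, at -0.35, did not (adjusted p = 0.0503). The pseudogene TUBA3FP was the 1 that rose with the block. It passed the filter only through 48 h arrays, and all its 24 h values were under 4, so this call is not support for a rise.

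In Nnm cells between 48 h and 24 h no member passed with or without the block (0.119% of all genes passed without it, 0.0642% higher and 0.055% lower, and 1.26% higher and 1.04% lower with it), and at an unadjusted p under 0.05 only CCT7 (-0.32) and TBCE (-0.33) were lower, where 5.18% of all genes were, and none was higher, where 5.6% of all genes were. For 2 members all values at 48 h lay below those at 24 h, where 7.07% of all genes did so, and for none above, where 5.65% did. These comparisons share their arrays with the treatment comparisons. The mean of TUBB6 was 10.69 ± 0.44 in Nnm cells at 48 h, 10.79 ± 0.30 in control cells at 48 h, 10.85 ± 0.04 in Nnm cells at 24 h and 11.77 ± 0.37 in control cells at 24 h (SD, n = 3 each), so the control cells at 24 h stood above 3 groups of similar mean. CCT7 gave another order, with 11.48 ± 0.12 in Nnm cells and 11.99 ± 0.12 in control cells at 48 h, and 11.80 ± 0.07 and 12.34 ± 0.14 in Nnm and control cells at 24 h.

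Markers of dividing cells were read beside the tubulins. All 15 of 15 proliferation markers were measured and none was below 4. Their mean log2 value per array was 11.44 to 11.90 in Nnm cells and 11.14 to 11.43 in control cells at 48 h, and 11.35 to 11.73 in Nnm cells and 11.71 to 11.99 in control cells at 24 h. At 48 h 14 of 15 had a positive change (TOP2A, CCNA2 and AURKB rose) and at 24 h 14 of 15 a negative one (AURKA and TYMS fell). In control cells all 15 were lower at 48 h than at 24 h, with a median of -0.61. Their part in the tubulin results was not tested.

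Taken as pairs of the same replicate number, 15 of the 38 genes were lower and 9 higher in all 3 Nnm arrays at 48 h, where 30.5% of all genes were lower and 34.4% higher. At 24 h 23 were lower and 6 higher, where 31% of all genes were lower and 33.5% higher. Replicate 2 was the lowest array in all 4 groups for 11 of the 38 genes, against 12.3% of all genes, and replicate 3 was the highest in all 4 for 8, against 5.84%.

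The wider pathway was read from 7 lists of related genes, with 101 genes tested. At 48 h 6 rose and 2 fell, where 8.45% and 5.34% of all genes did. At 24 h 6 rose and 8 fell, where 10.6% and 8.85% of all genes did. Of 13 tested tubulin-modifying enzymes, AGTPBP1, a deglutamylase, fell by 1.12 at 48 h (SE 0.28, adjusted p = 0.0279) and TTLL7, a glutamylase, rose at 24 h (adjusted p = 0.015) and lay around the floor, with 4.75 ± 0.10 in Nnm cells and 4.04 ± 0.23 in control cells (SD, n = 3 each), so the size of its change depends on the background subtraction. Of 8 genes of tubulin mRNA autoregulation and cofactor control, SCAPER rose by 1.04 at 48 h (adjusted p = 0.0432), though with the mean of its probe sets the adjusted p was 0.0514. TTC5, the factor that recognises newly made tubulin chains in autoregulation, changed by -0.46 at 48 h (adjusted p = 0.0569, with the block 0.00795) and by -0.28 at 24 h (adjusted p = 0.182, with the block 0.0373). Of 11 destabilising and severing proteins, FIGNL1 rose by 0.55 and KIF18B by 0.67 at 48 h (adjusted p = 0.0149 and 0.0345), and SPAST by 0.68 at 24 h (adjusted p = 0.0463).

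MAP2, a microtubule-binding protein of neurons, had the largest change of the listed microtubule genes. It averaged 8.32 ± 0.38 in Nnm cells and 6.01 ± 0.60 in control cells at 48 h, and 8.79 ± 0.29 in Nnm cells and 6.73 ± 0.93 in control cells at 24 h (SD, n = 3 each). It rose by 2.32 at 48 h (SE 0.43, adjusted p = 0.0117) and by 2.06 at 24 h (SE 0.43, adjusted p = 0.0131). Of the neuronal markers NEFL fell (-1.27 at 48 h, and -1.49 at the earlier time), SNAP25 rose at 24 h, and the other 3 stayed below 4. The mean of the 5 per array was 4.26 to 4.52 in Nnm cells and 4.44 to 4.65 in control cells at 48 h, and 4.49 to 4.63 in Nnm cells and 4.60 to 4.79 in control cells at 24 h, and its part in the results of TUBA1A, TUBB4A and MAP2 was not tested. Among the other 18 microtubule-associated and end-binding genes, MAP9 rose and MAPRE1 fell at 24 h (0.51 and -0.35, adjusted p = 0.0433 and 0.049), and with the mean of their probe sets both calls were lost (adjusted p = 0.134 and 0.0641). Of 14 cofactors of the gamma-tubulin ring, HAUS3 rose by 0.76 at 48 h (adjusted p = 0.0273).

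Of 15 chaperonin cofactors and prefoldin-like proteins, none passed at 48 h and 4 fell at 24 h, where 8.85% of all genes fell. RUVBL2 and RUVBL1, ATPases that work with a prefoldin-like complex, fell by 1.00 and 0.87 (adjusted p = 0.0095 and 0.0187), TXNDC9, a cofactor that binds CCT, by 0.59 (adjusted p = 0.0416, or 0.0657 when its probe sets are averaged) and HSPA4 by 0.36 (adjusted p = 0.024). Of 21 other proteins folded by or bound to CCT, 1 rose and 1 fell at 48 h, where 8.45% and 5.34% of all genes did, and 2 rose and 3 fell at 24 h, where 10.6% and 8.85% did. GNB1, a G protein beta subunit, fell at both times, by 0.56 at 48 h (adjusted p = 0.0309) and by 0.48 at 24 h (adjusted p = 0.0426). BBS12, a chaperonin-like protein of the cilium, rose at both times, by 1.02 at 48 h (adjusted p = 0.0159) and by 1.23 at 24 h (adjusted p = 0.0079). At 24 h HDAC3 and WRAP53 also fell (-0.42 and -0.59) and BBS9 rose (0.56).

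Some probe sets are listed for several genes and were tested apart, among 952 such probe sets. The 3 listed for both SNORA29 and TCP1 had changes of -0.29 to -0.09 at 48 h and -0.40 to -0.12 at 24 h, none past the threshold, with or without the block. Of the 3 listed for both MIR6834 and PFDN6, 1 fell at 24 h (adjusted p = 0.0404), but all its Nnm values were under the floor of 4. It read 3.50, 3.56 and 3.54 in Nnm cells at 24 h, against 4.13, 4.98 and 5.23 in control cells, so no size is given. It passed at 48 h with the block alone (adjusted p = 0.149, with the block 0.0308), again with every Nnm value under 4. The changes of the other 2 lay between -0.23 and -0.12 at both times. Those listed for TUBA3D and TUBA3C changed by 0.19 and 0.32 at 48 h and by -0.39 and -0.35 at 24 h, with no call. The one listed for TUBB2B and TUBB2A changed by 0.11 at 48 h and -0.41 at 24 h (adjusted p = 0.506, with the block 0.0303). The one listed for CCT6P1 and CCT6P3 changed by -0.17 at 48 h and 0.03 at 24 h, with no call. Which of the listed genes these probe sets measured was not resolved.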

How the data were processed

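The authors deposited log2 expression values made with GCRMA, per the submitters' processing notes. The version of GCRMA and the arrays normalised together are not given in the sources used here. The log base follows from the span of the values. GCRMA estimates background from probe sequence, which can compress or inflate changes of dim probe sets.

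The platform table names 1 gene for 41091 of 54675 probe sets and several for 1801. It leaves out 11721, and 62 are controls. RefSeq (GRCh38.p14) held the gene IDs of 41037 and changed 0 symbols. A probe set was tested if its log2 value exceeded 4 on 3 or more arrays, and the brightest one stood for its gene. This left 10907 genes. Many tubulin probe sets can also bind paralogs.

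Tests were made with limma 3.58.1 under R 4.3.3: lmFit with a mean for each group, then eBayes, using every array, with Benjamini-Hochberg adjustment across all genes tested and a threshold of 0.05. Each SE is limma's and each SD is over 3 arrays. Values are given per array for each member past the threshold at either time or over both, and for the brightest member of each role. Up to 4 genes of each other list are named, those past the threshold with the smallest p. TTC5, WRAP53, the marker genes and the members named without a call lie outside this rule, and were chosen after their values were seen. The symbol rule uses no measured value, but the gene set and the lists were chosen with earlier results of these data known.

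Pairing was checked on deviations from the group means. They correlated at 0.34 to 0.512 between Nnm and control arrays that share a number and a time, and at 0.318 to 0.696 over all pairs sharing a number. Pairs with unequal numbers from different groups gave -0.587 to 0.119, and pairs within a group were left out of this range. The deviations of a group's arrays cancel out, so part of these negative values is built in. Arrays that share a number were the more alike, so the replicate numbers were taken as pairs. The labels call the arrays biological replicates without saying how cultures were kept apart, so p-values measure the spread between these arrays.

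On simulated data for the 24 h comparison (10907 genes), log2 changes of 0.5, 1 and 2 were recovered in 14.9%, 62.7% and 98.5% of genes, and 9 unchanged genes were called. There, 200 genes were raised in the Nnm arrays, with noise drawn independently for each array. In the data 19.4% of all genes were called at 24 h, and arrays sharing a replicate number correlated. The simulation therefore checks the fit and does not give the power of the real test. Alternatives were other filters, probe set choices, normalisations and eBayes settings, array weights, the replicate block, the compared groups alone, and arrays left out. Figures come from matplotlib 3.10.9 (Python 3.11.15). Protein sequences were not used here.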

Additional observations from a re-analysis of the deposited data

How the results depend on the processing

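The main count of members called was 2 at 48 h, 9 at 24 h, 15 over both times, and 0 for the difference between times and for each group between times. Of all genes, 13.8% were called at 48 h, 19.4% at 24 h and 37.3% over both times. With the replicate number as a block over all arrays the member count was 13 at 48 h, 21 at 24 h and 12 in control cells between times. With this block 18.5% of all genes rose and 13.7% fell at 48 h, and 20% and 18.8% at 24 h. In control cells between times 3.87% rose and 4.6% fell. With the block within each time 2 fell and none rose at 48 h (CCT7 and TUBB4A, with TUBD1 lost), and 6 fell and 1 rose at 24 h (CCT3, CCT5, TUBA1A, TUBB2A, TUBB4A and TUBB6, and TUBA3FP). Array weights gave 8 at 48 h, 19 at 24 h, 1 in control cells and 1 in Nnm cells between times. The compared groups alone gave 0 at 48 h and 3 at 24 h (CCT7, TUBA1A and TUBB6), with fewer residual degrees of freedom. Without both Nnm replicate 2 arrays 6 passed at 48 h and 13 at 24 h. Of all genes, 16.4% rose and 12.5% fell at 48 h in that fit, and 18.1% and 15.9% at 24 h. Leaving out each array in turn gave 0 to 3 at 48 h, 0 to 12 at 24 h, 9 to 15 over both times, and 0 for the difference and for both groups between times. Other filters, probe set rules, normalisations and eBayes settings gave 2 at 48 h, 8 to 10 at 24 h and 13 to 16 over both times, with no call in the other comparisons. For settings given without a share of all genes, the counts show only how the calls depend on the setting. Of the named members' results under the settings other than leaving out 1 array, 400 kept their direction and side of the threshold, 31 passed newly, 20 no longer passed and 3 changed sign. Leaving out 1 array kept 397, brought 4 past the threshold, lost 47 and changed the sign of 8. The first 3 sign changes were CCT6A at 24 h with its other probe set (0.0031), and TUBB6 at 48 h with array weights (0.12) and without both Nnm replicate 2 arrays (0.054). None of the 8 was called. Over the fits without 1 array TUBB6 at 48 h ranged from -0.35 to 0.077, TBCA at 24 h from -0.018 to 0.0961, TUBA1B at 48 h from -0.026 to 0.153 and TUBG1 at 48 h from -0.12 to 0.306. The cause was not tested. Signal near the floor limits TUBG2, TUBA3FP, TUBGCP6, TTLL7 and the probe set listed for MIR6834 and PFDN6.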
